A study of Mus musculus with 7 samples.

Results

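The genes that copy DNA and supply its building blocks were followed in lung regulatory T (Treg) cells as 41 listed gene symbols, each matched exactly to the symbols of the deposited tables. All 41 were among the 19736 symbols of each table and all 41 passed the filter on low values, which kept genes with a normalised count of 10 or more in 3 or more libraries. Every library came from Foxp3-EGFP+ cells of female mice aged 5 to 7 weeks that carried the R576 variant of the IL-4 receptor alpha chain (Il4raR576). All mice received 100 µg of ovalbumin by intraperitoneal injection, a boost 2 weeks later and, from day 29, an aerosol of 1% ovalbumin for 30 minutes a day over 3 days, and they were killed on day 32. From total lung digests, 3 libraries were made of sorted CCR6+ Treg cells and 4 of sorted CCR6– Treg cells. CCR6 binds the chemokine CCL20. The libraries analysed here thus include no wild-type receptor, no mice without allergen and no conventional T cells, and nothing in the labels ties a library to a mouse of its own. The p-values therefore cover only the scatter from library to library, part of which may be technical.

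A cell that enters S phase first loads the MCM helicase onto origins of replication with the help of ORC, CDC6 and CDT1, then activates it with CDC45 and the GINS complex. Polymerase alpha with its primase starts each strand, the sliding clamp PCNA and its loader RFC hold polymerases delta and epsilon on the template, and FEN1 and ligase I join the fragments of the lagging strand. Ribonucleotide reductase, thymidylate synthase, thymidine kinase and dUTPase keep the pool of deoxynucleotides filled, and cyclin E and E2F1 drive the transition from G1 to S. Most of these genes are transcribed most strongly around S phase in dividing cells, which makes their summed RNA a common readout of proliferation.

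The deposited values, read counts that had been scaled by library size factors, are called normalised counts below. The recovered reads numbered 35182288, 11607780 and 27520975 in CCR6+ replicates 1 to 3, and 31083571, 35405497, 31443528 and 47261246 in CCR6– replicates 1 to 4. A single library, CCR6+ replicate 2, was unlike the other 6. With the fewest reads, it had 2.16% of genes at 0, whereas the others had 6.89% to 29.7%, and it lay at 254 on a first principal component that spanned -161 to 95.5 elsewhere. The sorted marker Ccr6 itself read 7309, 2750 and 6406 normalised counts in CCR6+ libraries, against 909, 851, 439 and 271 in CCR6– libraries, so that each library matched its label. Foxp3, the Treg lineage factor, had 12206 in CCR6+ replicate 2, against 37258 and 50875 in the other CCR6+ libraries and 19376 to 39097 in CCR6– libraries. The mean log2(value + 1) of 15 pan T cell genes was 13.96, 13.11 and 13.96 in CCR6+ replicates 1 to 3, against 13.85 to 14.16 in CCR6– libraries. Lists of other lung cells were high in the same CCR6+ library. The 16 epithelial markers averaged 10.69 there, against 6.37 and 7.88 in the other CCR6+ libraries and 4.81 to 7.79 in CCR6– libraries, and the 15 endothelial and stromal markers averaged 11.40, against 5.19 and 7.83 in the other CCR6+ libraries and 3.30 to 6.75 in CCR6– libraries. The differences below are therefore given with and without CCR6+ replicate 2.

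Replication genes were lower in CCR6+ than in CCR6– Treg libraries in most members, by a modest amount, and no single member passed the test across all genes. Of the 41 genes, 37 had a negative log2 difference, CCR6+ minus CCR6–, against 43.1% of all 14582 genes tested. Their median log2 difference was -0.44, against 0.10 for all genes, and the members ranged from -0.90 to 0.19. The mean value in CCR6+ libraries was a median of 74.0% of that in CCR6– libraries over the 41 members. Together they held 0.398%, 0.353% and 0.398% of all normalised counts in CCR6+ replicates 1 to 3, and 0.498%, 0.551%, 0.464% and 0.502% in CCR6– replicates 1 to 4, so that the summed share did not overlap between the groups. In these bulk samples, fewer cells in S phase and less of this RNA per cell cannot be told apart. Markers of other cells were on average higher in CCR6+ libraries, as given below, and their part in these values was not tested.

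With limma on log2(value + 1) and Benjamini-Hochberg adjustment over the 14582 genes, no member and no gene at all passed an adjusted p of 0.05 (0% of genes called). At an unadjusted p under 0.05, limma gave 12 members lower and none higher, where 2.35% of all genes were lower. In 20 members every CCR6+ library lay below every CCR6– library, where 5.53% of all genes did so, and in no member did the groups separate with CCR6+ higher, where 7.96% of all genes did so. The count test of edgeR on the recovered reads called no member either. It gave 19 members lower at an unadjusted p under 0.05, against 5.05% of all genes. DESeq2 on the same reads called 7 members lower, Cdc6, Mcm3, Mcm5, Mcm7, Rrm2, Chaf1a and Ccne1, against 0.919% of all genes called lower, and none higher. The DESeq2 adjusted p of these 7 ran from 0.00107 for Rrm2 to 0.0228 for Cdc6. On simulated counts with gene-wise spreads estimated from these libraries, DESeq2 made false calls, over all genes together, well above the rate its threshold sets. The simulation held no library set apart like CCR6+ replicate 2, and false calls among genes like these 7 were not counted separately. In the 20 limma and edgeR settings tried beside DESeq2 that weighted the libraries equally, the adjusted p of these 7 lay between 0.172 and 0.866.

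Leaving out CCR6+ replicate 2 kept the direction of the list with a smaller size. Then 38 members had a negative log2 difference, against 46.4% of all genes, with a median of -0.33, against 0.04 for all genes. The groups separated with CCR6+ lower in 24 members, against 8.62% of all genes. Those 24 contained all 20 members that separated with every library in, by construction, since leaving out a library cannot end a separation. Limma gave 7 members lower at an unadjusted p under 0.05, against 2.32% of all genes, and the smallest adjusted p was 0.61, so that none was called. DESeq2 then called Rrm2 lower and no other member. Of all 14582 genes it called 80 lower, and 3127 were given no adjusted p.

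**Figure D1:**
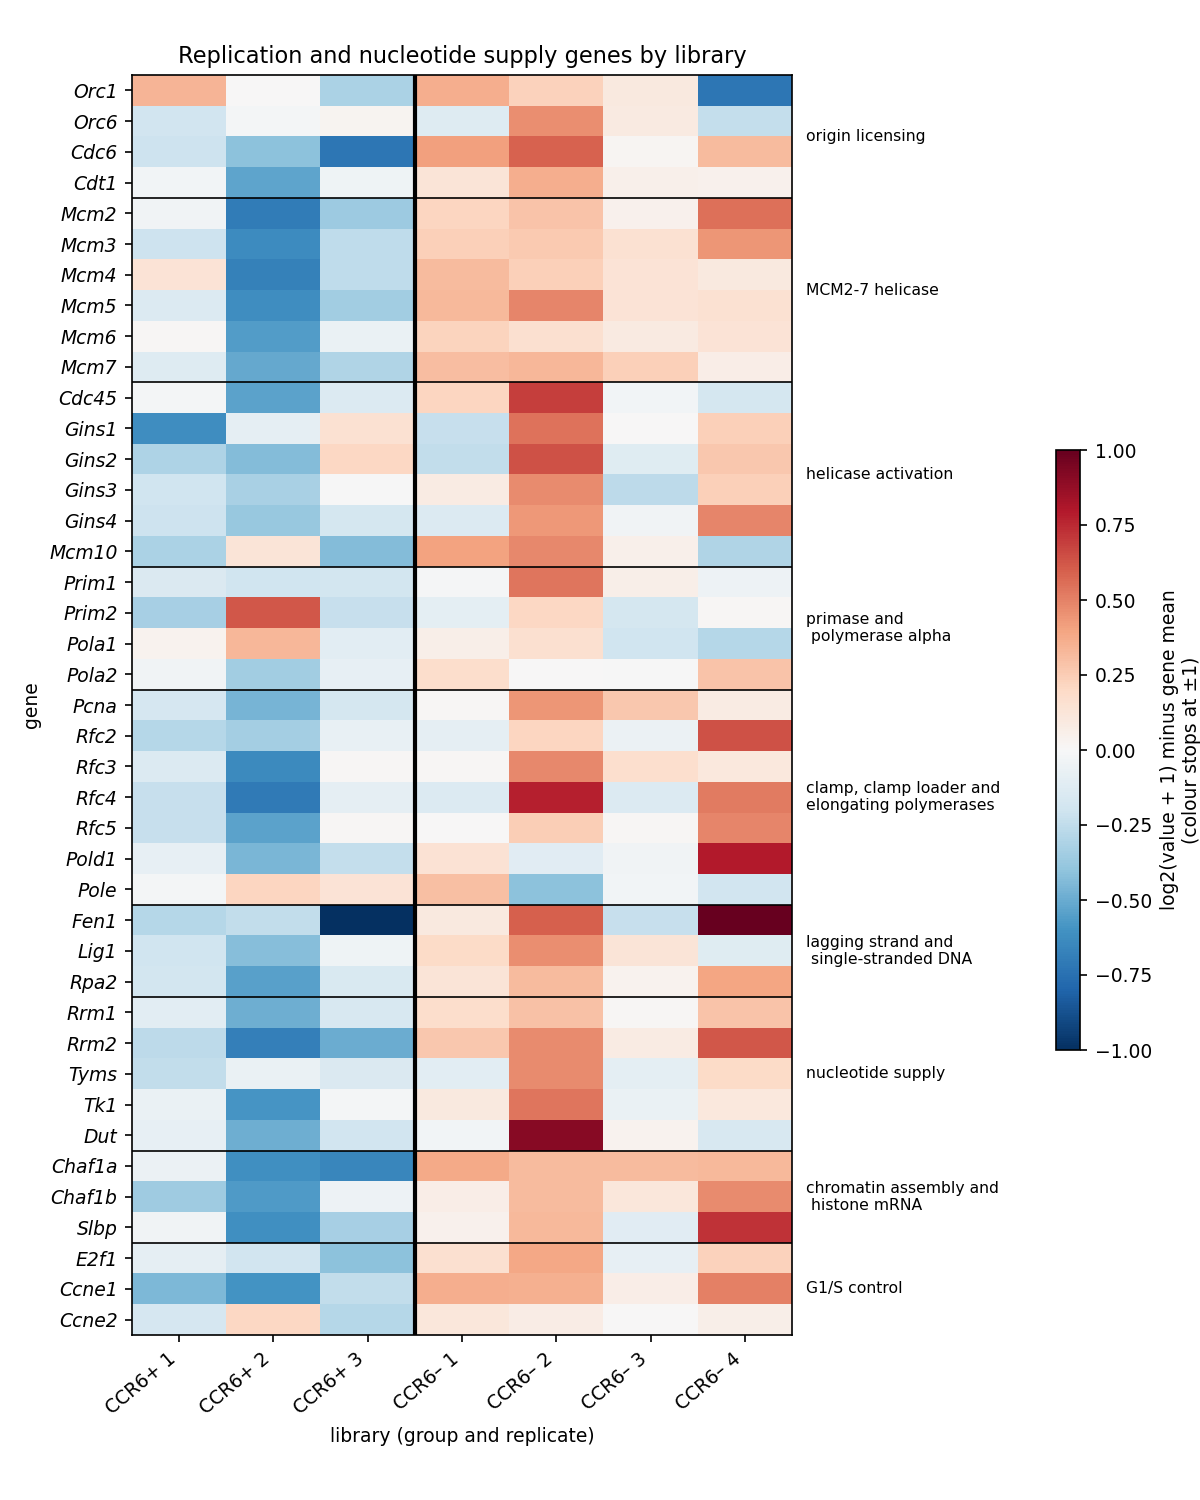
Each row is 1 of the 41 genes, grouped by role, and each column 1 library, with CCR6+ libraries left of the black line and CCR6– libraries right of it. Colour gives log2(value + 1) minus that gene's mean over the 7 libraries: CCR6+ columns are mostly blue, CCR6+ replicate 2 holds the lowest value of 28 genes, and CCR6– replicate 2 the highest value of 20.

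The libraries themselves were not even within a group. CCR6+ replicate 2 had the lowest value of 28 members, CCR6+ replicate 3 of 6 and CCR6+ replicate 1 of 3, and the remaining lowest values fell in CCR6– replicate 4, with 3, and CCR6– replicate 2, with 1. The highest value lay in CCR6– replicate 2 for 20 members, in CCR6– replicate 4 for 13 and in CCR6– replicate 1 for 5. CCR6+ replicate 2 held the other 3, Prim2, Pola1 and Ccne2. The mean log2(value + 1) of the 41 genes was 10.73, 10.53 and 10.69 in CCR6+ replicates 1 to 3, and 11.0, 11.25, 10.91 and 11.10 in CCR6– replicates 1 to 4, a gap that every CCR6+ library shared.

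CCR6+ replicate 2 was low in pan T cell genes, and scaling to those genes made this gap smaller. When each library was scaled to its pan T cell genes, 32 members kept a negative log2 difference, against 15.3% of all genes, the median became -0.13 and the groups no longer separated in any member (0 of 41), against 0.466% of all genes. The same scaling moved the median of all genes by 0.31, to 0.41. A single factor for each library shifts all genes alike, so the distance of the members from all genes, -0.54, is the same by construction. Under it the origin licensing and the primase and polymerase alpha genes had positive medians, 0.08 and 0.19. With CCR6+ replicate 2 left out as well, a choice made after seeing the data, the pan T scaling gave 38 members negative, against 43.3% of all genes, and a median of -0.30. The groups then separated with CCR6+ lower in 18 members, against 7.81% of all genes. In that comparison the pan T means of the 2 CCR6+ libraries, both 13.96, lay inside the CCR6– range of 13.85 to 14.16.

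**Figure D2:**
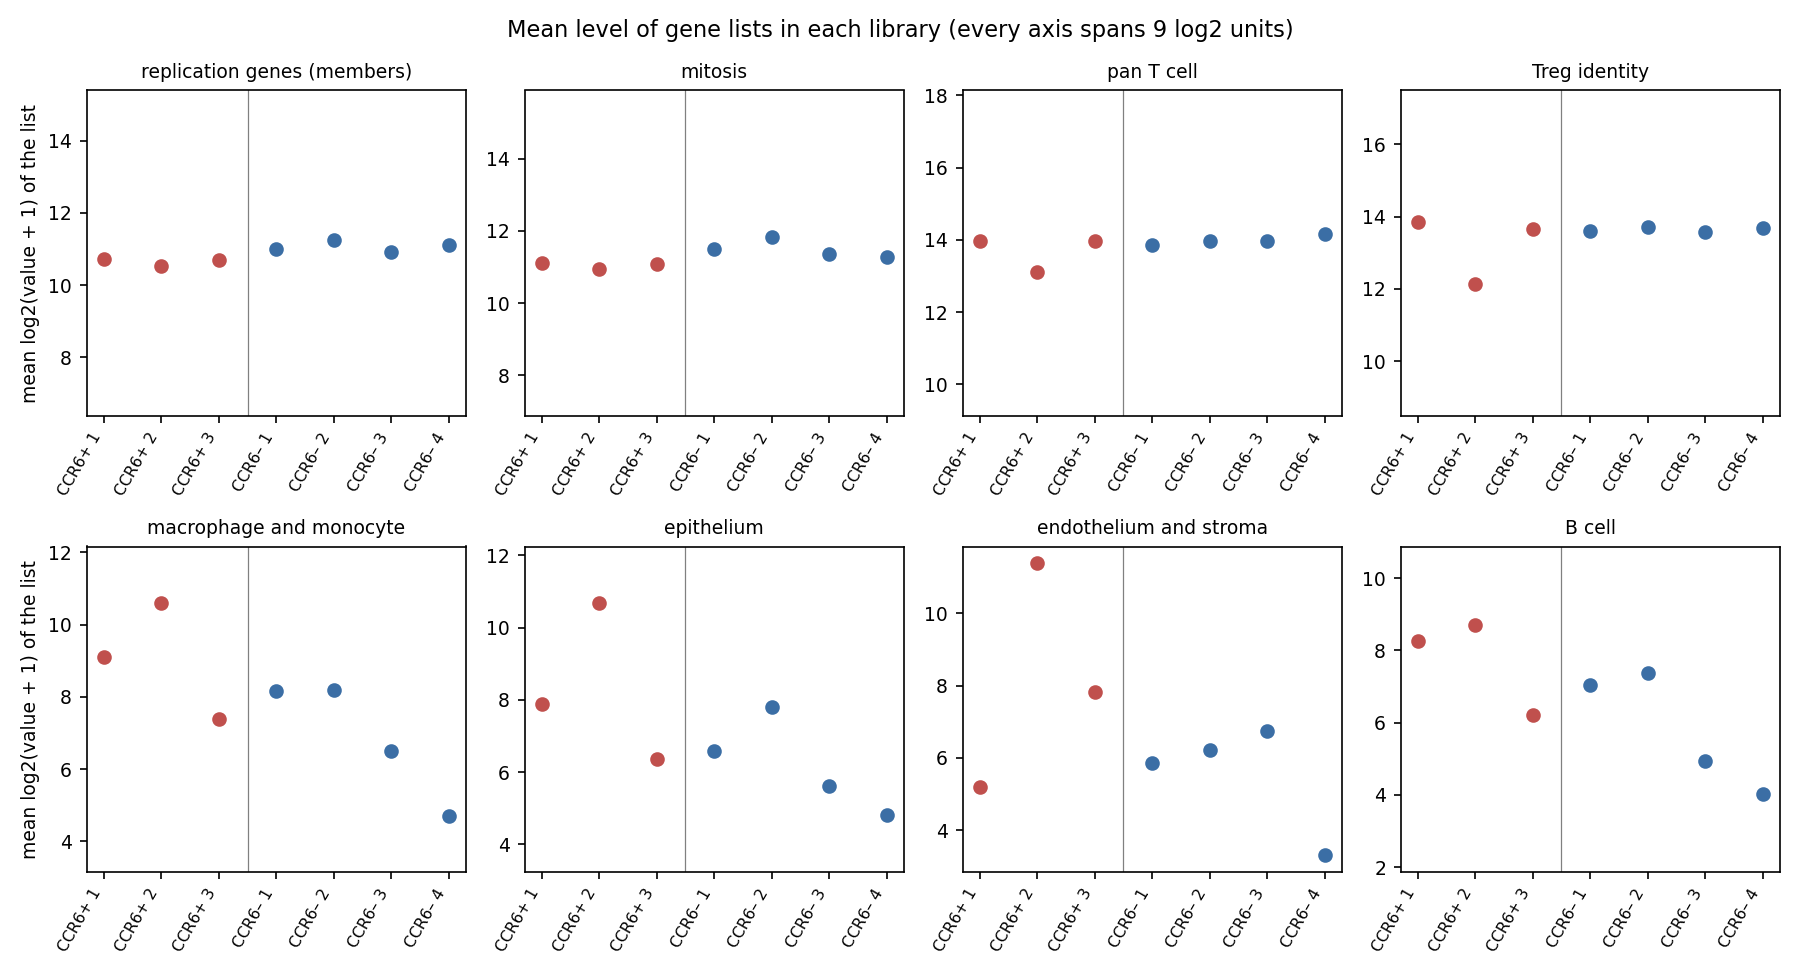
Mean log2(value + 1) of gene lists in each library, CCR6+ libraries in red on the left and CCR6– libraries in blue on the right; all panels span the same number of log2 units. The 3 CCR6+ points of the replication genes lie below the 4 CCR6– points, and CCR6+ replicate 2 is low for the pan T cell and Treg lists and high for the macrophage, epithelial, endothelial and B cell lists.

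The promoters of these genes were searched for short words, which the choice of members did not use. RefSeq promoter sequences of the GRCm38.p6 build, from 250 bases before to 50 bases after the RefSeq start of each gene, were found for 33 of the 41 members. Mcm4, Gins1, Gins2, Gins4, Rfc2, Pole, Prim2 and Ccne2 had no entry. Sequences were searched on both strands for the E2F words TTTCCCGC, TTTCGCGC, TTTGCCGC and TTTGGCGC, for the CCAAT box CCAAT, which NF-Y binds, and for the cell cycle homology region (CHR) TTTGAA or TTCGAA, which recruits the DREAM complex to genes of late cell cycle phases. Words may overlap, since TTTCGCGC and its reverse share letters and TTCGAA reads alike on both strands. An E2F word was present in 11 of the 33 promoters (33.3%), against 3.70% of the 11103 tested genes with an entry and 2.32% of all 27025 promoters. A CCAAT box was present in 57.6% of the members, against 38.3% of tested genes, and a CHR in 18.2%, against 14.5%. Among related lists, E2F words were in 35.3% of other S phase and repair targets of E2F and 31.6% of other G1/S regulators. They were in 30.0% of other replication machinery genes and 4.35% of other nucleotide genes. The E2F share was thus not particular to the members. The 16 mitosis genes with an entry had another profile, with an E2F word in 6.25%, a CCAAT box in 87.5% and a CHR in 75.0%. Among the members whose groups separated, 7 of 19 promoters held an E2F word (36.8%), and among the others 4 of 14 did (28.6%), a difference that was not tested. A match is a description of the letters and no evidence of binding, and other forms of these sites were not searched.

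Of the promoters taken for display, 4 are printed, 5′ to 3′, to show the range of the matches: Mcm3 with both kinds of word, Cdc6 with an E2F word only, Rrm2 with a CCAAT box only and Pola2 with neither. Capitals mark the matched E2F and CCAAT words in either orientation.
Mcm3, chr1:20820263-20820562, minus strand: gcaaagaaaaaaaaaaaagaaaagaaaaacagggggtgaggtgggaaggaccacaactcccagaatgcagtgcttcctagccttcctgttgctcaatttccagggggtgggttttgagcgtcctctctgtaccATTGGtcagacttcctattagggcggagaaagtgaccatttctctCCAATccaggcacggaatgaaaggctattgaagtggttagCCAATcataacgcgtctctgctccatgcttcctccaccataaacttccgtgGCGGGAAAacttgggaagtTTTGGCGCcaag
Cdc6, chr11:98907901-98908200, plus strand: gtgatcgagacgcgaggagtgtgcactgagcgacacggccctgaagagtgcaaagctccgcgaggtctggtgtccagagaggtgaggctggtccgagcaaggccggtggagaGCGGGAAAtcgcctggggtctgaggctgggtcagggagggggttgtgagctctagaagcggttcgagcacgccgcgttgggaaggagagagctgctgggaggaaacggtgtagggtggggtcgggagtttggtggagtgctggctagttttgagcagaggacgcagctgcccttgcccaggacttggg
Rrm2, chr12:24708004-24708303, plus strand: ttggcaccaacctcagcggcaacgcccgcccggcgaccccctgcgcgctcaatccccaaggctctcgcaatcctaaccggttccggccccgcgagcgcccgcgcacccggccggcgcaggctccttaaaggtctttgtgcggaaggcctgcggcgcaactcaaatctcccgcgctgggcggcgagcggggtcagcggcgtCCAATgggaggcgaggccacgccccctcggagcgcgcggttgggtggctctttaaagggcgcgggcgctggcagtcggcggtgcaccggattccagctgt
Pola2, chr19:5964157-5964456, minus strand: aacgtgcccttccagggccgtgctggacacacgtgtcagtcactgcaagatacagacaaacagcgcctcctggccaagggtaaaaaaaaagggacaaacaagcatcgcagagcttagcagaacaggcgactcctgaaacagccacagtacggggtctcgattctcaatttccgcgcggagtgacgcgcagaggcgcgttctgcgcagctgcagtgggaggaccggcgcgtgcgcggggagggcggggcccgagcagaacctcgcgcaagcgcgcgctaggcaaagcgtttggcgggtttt
In Mcm3, 3 CCAAT boxes preceded the annotated start and the 2 E2F words followed it. The CCAAT box of Rrm2 lay upstream of the start in both RefSeq and GENCODE. For Cdc6 the annotations differ: the RefSeq start lies 350 bases inside the GENCODE gene, so that the E2F word is upstream of the RefSeq start and downstream of the GENCODE one. In 8 of the 33 members the starts of both annotations lie more than 100 bases apart. Pola2 separated between the groups with none of these exact words in its window. Near its end the window holds TTTGGCGG, which differs from the searched TTTGGCGC in the last letter. The promoter of Orc1, whose levels overlapped, held 1 E2F word and 2 CCAAT boxes.

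**Figure D3:**
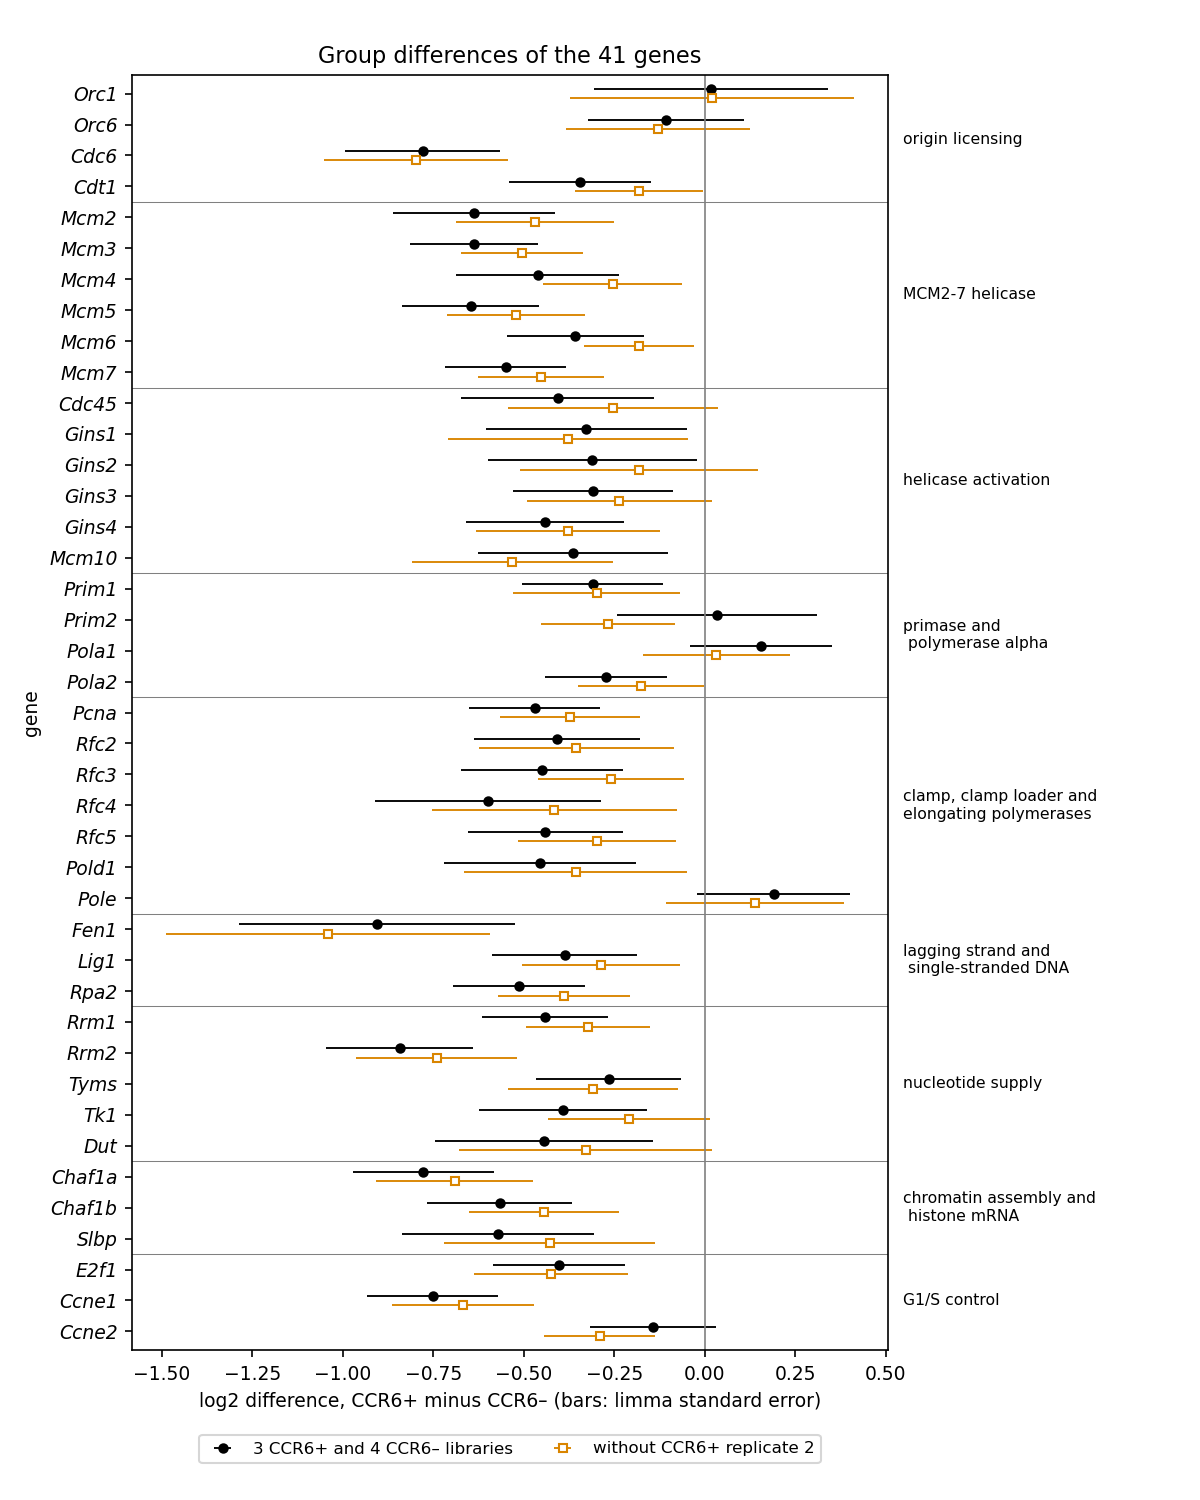
Log2 differences, CCR6+ minus CCR6–, of the 41 genes by role, with the limma standard error as bars; black circles use all 7 libraries and open orange squares leave out CCR6+ replicate 2. Nearly all points lie left of 0, and the points of Prim2 change side when that library is left out.

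Origin licensing split into genes that were lower and genes that were level. Cdc6, the ATPase that loads the helicase (chr11:98907801-98923940, plus strand, mm10), had 1111, 965 and 776 normalised counts in CCR6+ replicates 1 to 3, against 1703, 1932, 1296 and 1591 in CCR6– replicates 1 to 4. Every CCR6+ library lay below every CCR6– library, and CCR6+ replicate 3, not replicate 2, was the lowest. The means were 950.3 ± 168 in CCR6+ and 1631 ± 265 in CCR6– (SD, n = 3 and 4), a log2 difference of -0.78 (SE 0.21, limma adjusted p = 0.432), and -0.80 without CCR6+ replicate 2. Its E2F word stands in the sequence above. Cdt1, which brings the helicase to the origin with Cdc6, had 2093, 1479 and 2065 in CCR6+ libraries, against 2329, 2741, 2206 and 2197 in CCR6– libraries. The groups separated by a narrow margin, and the log2 difference shrank in size to -0.18 without CCR6+ replicate 2, against -0.35 with it. The 2 subunits of the origin recognition complex overlapped. Orc1, whose protein marks origins in G1, read 638, 505 and 405 in CCR6+ libraries, against 649, 593, 539.8 and 305 in CCR6– libraries, with a log2 difference of 0.02 (SE 0.32), the same without CCR6+ replicate 2. CCR6– replicate 4 held its lowest value, and the sign turned negative in several other settings. Exons of other genes cover 10.8% of the Orc1 exons. Orc6 averaged 840.0 ± 65.8 in CCR6+ and 919 ± 206 in CCR6– libraries, a log2 difference of -0.11, or -0.13 without CCR6+ replicate 2.

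The 6 subunits of the MCM2-7 helicase, the ring that unwinds the double helix, were all lower, with a median log2 difference of -0.59. Of the 6, 5 separated, against 5.53% of all genes. Mcm3 (chr1:20802968-20820312, minus strand) had 6697, 4977 and 6451 normalised counts in CCR6+ replicates 1 to 3, against 9091, 9236, 8563 and 10495 in CCR6– replicates 1 to 4. The highest CCR6+ library stood well under the lowest CCR6– library, and the log2 difference was -0.64 (SE 0.18, limma adjusted p = 0.435), or -0.50 without CCR6+ replicate 2. Mcm5 (chr8:75109569-75128439, plus strand) had 7251, 5193 and 6265 in CCR6+ libraries, against 9998, 11196, 8798 and 8893 in CCR6– libraries. Its groups were as clearly apart, with a log2 difference of -0.65 (SE 0.19), or -0.52 without CCR6+ replicate 2. Mcm7 (chr5:138164583-138172422, minus strand) had 3709, 2848 and 3283 in CCR6+ libraries, against 5009, 5117, 4781 and 4238 in CCR6– libraries. Here too no value overlapped, and the log2 difference was -0.55 (SE 0.17), or -0.45 without CCR6+ replicate 2. Exons of other genes cover 12.6% of the Mcm7 exons, so that some of its reads may not be its own.

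Mcm2 averaged 6558 ± 1509 in CCR6+ and 10104 ± 1490.4 in CCR6– libraries, and Mcm6 11244 ± 2243 in CCR6+ and 14204 ± 562 in CCR6– libraries, both with separate groups. Their log2 differences were -0.64 and -0.36, and -0.47 and -0.18 without CCR6+ replicate 2. Mcm4 was the exception among the subunits: its 11522 in CCR6+ replicate 1 exceeded the 11511 and 11206 of CCR6– replicates 3 and 4, and its log2 difference was -0.46, or -0.25 without CCR6+ replicate 2. The 6 genes encode a ring with 1 copy of each, yet their RNA per kilobase of exon was not equal. These lengths join the exons of all annotated transcripts, 6956 bases for Mcm2 and 3589 for Mcm4, which lowers genes with more annotated exon. In every library Mcm4 or Mcm6 was the most abundant subunit per length and Mcm7 the least, with a ratio of highest to lowest between 2.89 and 3.83. Mcm4 took 27.7%, 23.8% and 24.5% of the summed MCM2-7 level per length in CCR6+ replicates 1 to 3, and 25.5%, 24.0%, 24.8% and 22.5% in CCR6– replicates 1 to 4. The Mcm4 shares overlapped between the groups. Mcm6 took 23.8%, 24.2% and 26.0% in CCR6+ replicates 1 to 3, against 22.4%, 21.3%, 22.5% and 21.7% in CCR6– replicates 1 to 4, so that every CCR6+ share lay above every CCR6– share, a difference that was not tested. The shares of the other 4 subunits overlapped. The summed level of the 6 genes did not overlap, at 50172, 33363 and 43415 normalised counts in CCR6+ libraries against 61739, 62257, 55795 and 60986 in CCR6– libraries.

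Helicase activation genes were lower by a smaller amount, with a median log2 difference of -0.35. The groups separated in 1 of 6, against 5.53% of all genes. Gins4, a subunit of the GINS complex that rides with the helicase, had 1236, 1096 and 1264 normalised counts in CCR6+ replicates 1 to 3, against 1299.5, 1922, 1392 and 2004 in CCR6– replicates 1 to 4. The gap between the groups was narrow, and the log2 difference was -0.44 (SE 0.22, limma adjusted p = 0.494), or -0.38 without CCR6+ replicate 2. Gins1, Gins2 and Gins3, its partners, had log2 differences of -0.33, -0.31 and -0.31 with overlapping groups, and of -0.38, -0.18 and -0.24 without CCR6+ replicate 2. For Gins2, 67.3% of the exonic bases are shared with exons of Gse1 on the opposite strand, and reads of the 2 genes may not have been separable. Cdc45, the third part of the active helicase, averaged 1132 ± 203 in CCR6+ and 1524 ± 427 in CCR6– libraries, where CCR6– replicate 4 lay below 2 CCR6+ libraries. Its log2 difference was -0.41, or -0.25 without CCR6+ replicate 2. Mcm10, which helps to open the origin, had its highest CCR6+ value, 1249, in replicate 2. Its groups overlapped with that library and separated without it, at a log2 difference of -0.53 against -0.36 with it.

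Primase and polymerase alpha, which lay down the first nucleotides of each fragment, differed least, with a median log2 difference of -0.12 over 4 genes. Prim1, the catalytic primase subunit, had 1495, 1442 and 1459 normalised counts in CCR6+ replicates 1 to 3, against 1643, 2406, 1725 and 1597 in CCR6– replicates 1 to 4. The CCR6+ values were nearly equal and lay just below the CCR6– values, with a log2 difference of -0.31 (SE 0.20), or -0.30 without CCR6+ replicate 2. Pola2, the regulatory subunit of the polymerase, had 2521, 2027 and 2431 in CCR6+ libraries, against 2918, 2585, 2576 and 3151 in CCR6– libraries. These groups were also apart by a small step, at a log2 difference of -0.27 (SE 0.17, limma adjusted p = 0.538), or -0.18 without CCR6+ replicate 2.

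Their partners had positive log2 differences with all libraries in, and CCR6+ replicate 2 was the highest library for both. Prim2, the large primase subunit, had 1114, 2163 and 1200 in CCR6+ libraries, against 1315, 1623, 1242 and 1413 in CCR6– libraries. That library stood alone, while both other CCR6+ libraries lay below every CCR6– library. Its log2 difference was 0.03 with all libraries and -0.27 without CCR6+ replicate 2. Pola1, the catalytic subunit of polymerase alpha, had 2608, 3214 and 2371 in CCR6+ libraries, against 2657, 2843, 2214 and 2093 in CCR6– libraries. The groups overlapped, with log2 differences of 0.16 with it and 0.03 without it.

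Of the clamp, the clamp loader and the elongating polymerases, 6 of 7 genes were lower, with a median log2 difference of -0.45. The groups separated in 2, against 5.53% of all genes. Pcna, the sliding clamp (chr2:132249162-132253314, minus strand), had 2288, 1868 and 2279.9 normalised counts in CCR6+ replicates 1 to 3, against 2594, 3489, 3101 and 2724 in CCR6– replicates 1 to 4. No value overlapped, and the log2 difference was -0.47 (SE 0.18, limma adjusted p = 0.466), or -0.37 without CCR6+ replicate 2. The mouse genome has 2 annotated Pcna pseudogenes, and 1 of them is also listed in the deposited tables. Rfc3, a subunit of the loader that opens the clamp, had 906, 639 and 1003 in CCR6+ libraries, against 1004, 1394, 1120 and 1076 in CCR6– libraries. CCR6+ replicate 3 and CCR6– replicate 1 almost touched, and the log2 difference was -0.45 with all libraries and -0.26 without CCR6+ replicate 2. The other loader subunits Rfc2, Rfc4 and Rfc5 had log2 differences of -0.41, -0.60 and -0.44, with overlapping groups, and of -0.35, -0.42 and -0.30 without CCR6+ replicate 2. Exons of other genes, on the opposite strand, cover 15.1% of the Rfc2, 12.7% of the Rfc4 and 10.7% of the Rfc5 exons.

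The catalytic subunits of the 2 elongating polymerases differed in sign. Pold1, of polymerase delta, averaged 3263 ± 419 in CCR6+ and 4597 ± 1446 in CCR6– libraries, where CCR6– replicate 4 led with 6719. Its log2 difference was -0.46, or -0.36 without CCR6+ replicate 2. Pole, of polymerase epsilon, had 1406, 1656 and 1570.3 in CCR6+ libraries, against 1757, 1077, 1401 and 1251 in CCR6– libraries. The Pole groups overlapped, since CCR6– replicate 1 was the highest, and the log2 difference was 0.19 (SE 0.21), or 0.14 without CCR6+ replicate 2.

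On the lagging strand, Rpa2 and Fen1 separated and Lig1 did not. Rpa2, a subunit of the protein that coats single-stranded DNA, had 2864, 2238 and 2941 normalised counts in CCR6+ replicates 1 to 3, against 3573, 4061, 3345 and 4292 in CCR6– replicates 1 to 4. The groups were apart, at a log2 difference of -0.51 (SE 0.18, limma adjusted p = 0.449) and -0.39 without CCR6+ replicate 2. Fen1, the nuclease that trims flaps between fragments, had the largest difference of all members on the smallest counts: 30.9, 31.9 and 18.3 in CCR6+ libraries, against 40.7, 58.0, 32.2 and 81.9 in CCR6– libraries. CCR6+ replicate 2 and CCR6– replicate 3 nearly met, and the log2 difference was -0.90 (SE 0.38), or -1.04 without CCR6+ replicate 2. These values rest on 14 to 121 reads a library, where the other members had at least 112 reads in each. Exons of other genes, on the opposite strand, cover 84.2% of the Fen1 exons, mostly the antisense gene Gm10143, so that Fen1 reads may have been lost or mixed in counting. Lig1, the ligase that seals the nicks, averaged 3079.6 ± 401 in CCR6+ and 4047 ± 679.6 in CCR6– libraries, with a log2 difference of -0.39, or -0.29 without CCR6+ replicate 2.

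Nucleotide supply held the largest well-measured difference. Rrm2, the regulated small subunit of ribonucleotide reductase (chr12:24708241-24714146, plus strand), had 7927, 5907 and 6747 normalised counts in CCR6+ replicates 1 to 3, against 11432, 13215, 10047 and 14659 in CCR6– replicates 1 to 4. The highest CCR6+ library stood well below the lowest CCR6– library, CCR6– replicate 3. The means were 6861 ± 1015 in CCR6+ and 12338 ± 2019 in CCR6– (SD, n = 3 and 4), a log2 difference of -0.84 (SE 0.20, limma adjusted p = 0.405). Without CCR6+ replicate 2 it was -0.74 (limma adjusted p = 0.624). Per kilobase of exon, Rrm2 was the most abundant of the 41 members, at a mean of 3605 normalised counts over the 7 libraries, above 97.9% of the tested genes. These lengths join the exons of all annotated transcripts, 2771 bases for Rrm2 and 11012 for Rrm1, so the order depends in part on the annotation.

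Rrm1, the large subunit of the same enzyme, had 8497, 6489.7 and 8139.9 in CCR6+ libraries, against 10278, 11158, 9183 and 11096 in CCR6– libraries. It also separated, but at a log2 difference of -0.44 (SE 0.17), about as large as the median of the list, or -0.32 without CCR6+ replicate 2. Thymidylate synthase (Tyms), which makes dTMP, averaged 1611 ± 103 in CCR6+ and 1962 ± 391 in CCR6– libraries. Its groups overlapped through CCR6+ replicate 2 and separated without it, at log2 differences of -0.27 with it and -0.31 without it. Thymidine kinase 1 (Tk1), the salvage enzyme, averaged 902 ± 185 in CCR6+ and 1179.6 ± 224 in CCR6– libraries, at -0.39 with CCR6+ replicate 2 and -0.21 without it. dUTPase (Dut), which keeps uracil out of DNA, averaged 1322 ± 185 in CCR6+ and 1873 ± 719 in CCR6– libraries, the spread of the CCR6– group coming from 2943 in replicate 2. Its log2 difference was -0.44, or -0.33 without CCR6+ replicate 2.

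Chromatin assembly genes were lower to a like degree, with a median log2 difference of -0.57. Chaf1a, the large subunit of the CAF-1 chaperone that places histones behind the fork (chr17:56040439-56072289, plus strand), had 1280, 871 and 848 normalised counts in CCR6+ replicates 1 to 3, against 1738, 1659, 1664 and 1668 in CCR6– replicates 1 to 4. The CCR6– libraries were almost equal, with a mean of 1683 ± 37.4, and all 3 CCR6+ libraries lay below them, with a mean of 999.6 ± 243 and CCR6+ replicate 1 closest. The log2 difference was -0.78 (SE 0.20, limma adjusted p = 0.419), or -0.69 without CCR6+ replicate 2. However, 52.5% of the exonic bases of Chaf1a overlap Ubxn6 on the opposite strand. Chaf1b, its partner, has no such overlap. It had 1231, 1062 and 1525 in CCR6+ libraries, against 1649, 1965, 1708 and 2186 in CCR6– libraries, again with no shared range, at a log2 difference of -0.57 (SE 0.20), or -0.44 without CCR6+ replicate 2. Slbp, which binds the stem-loop of histone mRNA, averaged 6328 ± 1263 in CCR6+ and 9512 ± 2513 in CCR6– libraries and overlapped, since CCR6+ replicate 1 exceeded CCR6– replicate 3. The log2 difference of Slbp was -0.57, or -0.43 without CCR6+ replicate 2.

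Among the G1/S control genes, the 2 cyclins E parted. Ccne1, a partner of CDK2 at the start of S phase (chr7:38097984-38107534, minus strand), had 772, 696 and 889 normalised counts in CCR6+ replicates 1 to 3, against 1355, 1348, 1104 and 1492 in CCR6– replicates 1 to 4. The groups were clearly apart, with means of 786 ± 97.3 in CCR6+ and 1325 ± 161 in CCR6– (SD, n = 3 and 4). The log2 difference of -0.75 (SE 0.18) had the smallest p of all members, and still only a limma adjusted p of 0.401. Ccne2, its paralogue, averaged 1056 ± 197 in CCR6+ and 1155 ± 35.1 in CCR6– libraries. CCR6+ replicate 2, at 1278, was the highest of all libraries, and the log2 difference was -0.14 with it and -0.29 without it. Exons of Ints8, on the opposite strand, cover 17.4% of the Ccne2 exons, so that some Ccne2 reads may not be its own. The same limit holds for the ratio of Ccne1 to Ccne2 below. E2f1, the transcription factor that activates much of this list, had 873, 814 and 697 in CCR6+ libraries, against 1038, 1216, 875 and 1088 in CCR6– libraries. The groups separated by a very narrow margin, between CCR6+ replicate 1 and CCR6– replicate 3, at a log2 difference of -0.40 (SE 0.18), or -0.42 without CCR6+ replicate 2.

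**Figure D4:**
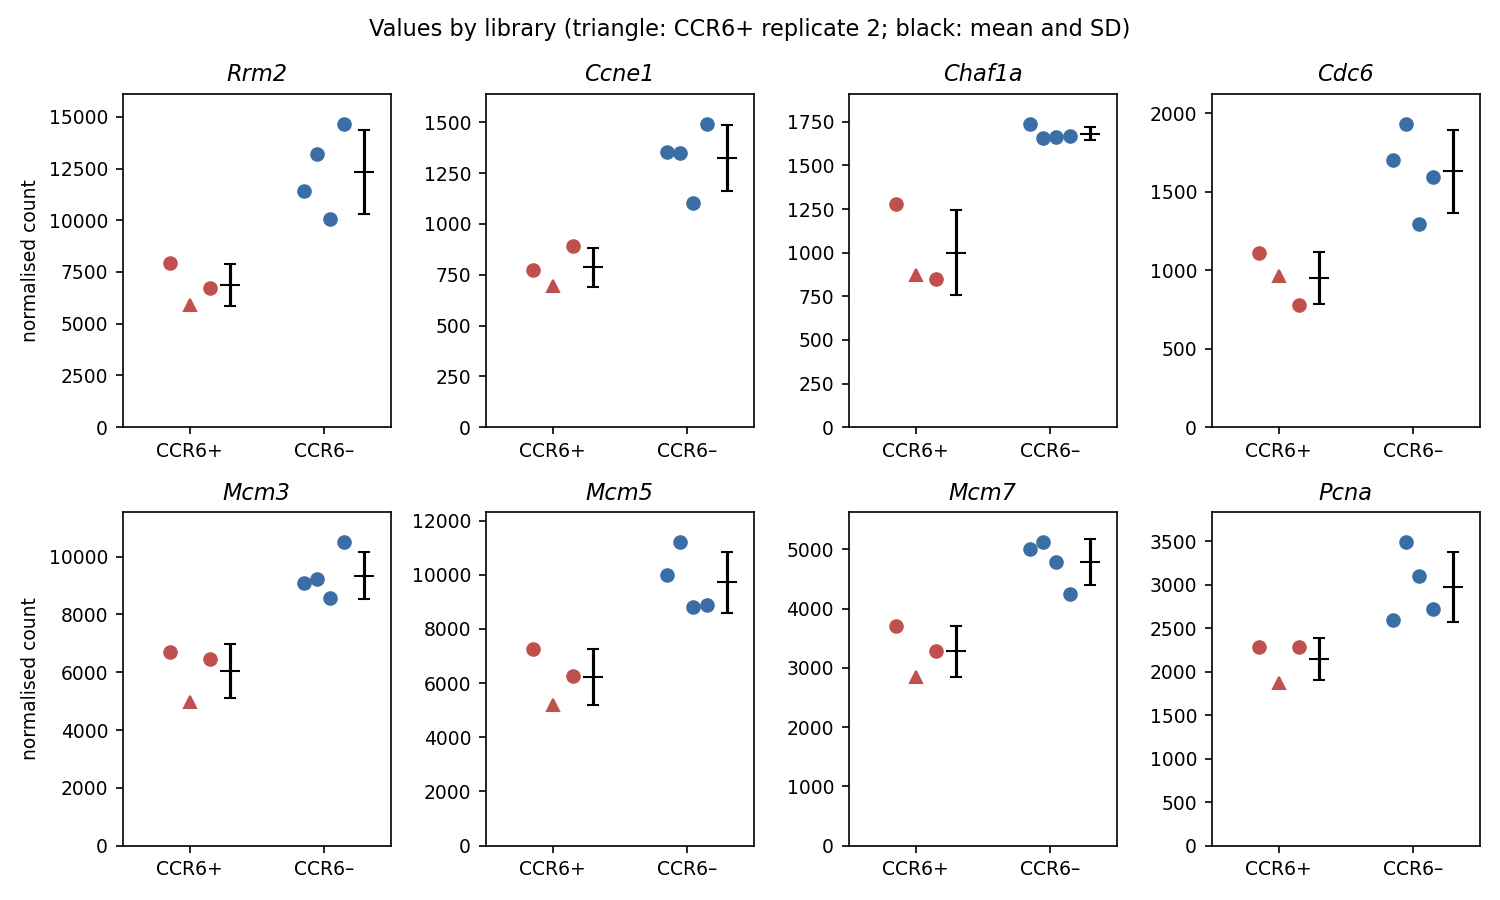
Normalised counts of 8 members in each library, with CCR6+ in red on the left, where the triangle is CCR6+ replicate 2, and CCR6– in blue on the right; black marks give mean and SD, and each axis starts at 0. In all 8 panels the 3 CCR6+ points lie below the 4 CCR6– points, for Rrm2 at 5907 to 7927 against 10047 to 14659.

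Ratios of 2 genes in the same library do not depend on how the libraries were scaled, and 6 such ratios were compared with an exact two-sided permutation test over the 7 libraries, whose smallest possible p is 0.0286. The ratio of Rrm2 to Rrm1, the 2 subunits of the reductase, was -0.10, -0.14 and -0.27 on the log2 scale in CCR6+ replicates 1 to 3, against 0.15, 0.24, 0.13 and 0.40 in CCR6– replicates 1 to 4. Per kilobase of exon, Rrm2 lay above Rrm1 in every library. It had 2861 against 772 in CCR6+ replicate 1, and 5290 against 1008 in CCR6– replicate 4. Only the difference between the groups is read here, since the counts in the ratio were not divided by gene length. The difference of -0.40 reached the smallest p that the exact test can give, 0.0286, and an adjusted p of 0.0571 over the 6 ratios. It was -0.42 without CCR6+ replicate 2. Relative to Rrm2b, the paralogue used outside S phase, Rrm2 gave log2 ratios of 3.49, 2.69 and 3.20 in CCR6+ libraries, against 3.73, 4.49, 3.74 and 3.95 in CCR6– libraries. These did not overlap, with the same exact p of 0.0286 and adjusted p of 0.0571, and the difference was -0.85, or -0.63 without CCR6+ replicate 2. Rrm2b itself was level, at 784 in CCR6+ and 788 in CCR6– libraries on average.

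The ratio of Ccne1 to Ccne2 was -0.35, -0.88 and -0.03 in CCR6+ libraries, against 0.18, 0.21, -0.01 and 0.37 in CCR6– libraries. CCR6+ replicate 3 and CCR6– replicate 3 lay next to each other, and the difference of -0.61 had the exact p of 0.0286 and adjusted p of 0.0571, shrinking in size to -0.38 without CCR6+ replicate 2. The other 3 ratios overlapped between the groups. Cdt1 to Gmnn, its inhibitor, differed by -0.08 (exact permutation p = 0.629), Tk1 to Dck, the deoxycytidine kinase, by -0.15 (exact permutation p = 0.543), and Pcna to Pold2, a subunit of polymerase delta, by 0.52 (exact permutation p = 0.257).

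**Figure D5:**
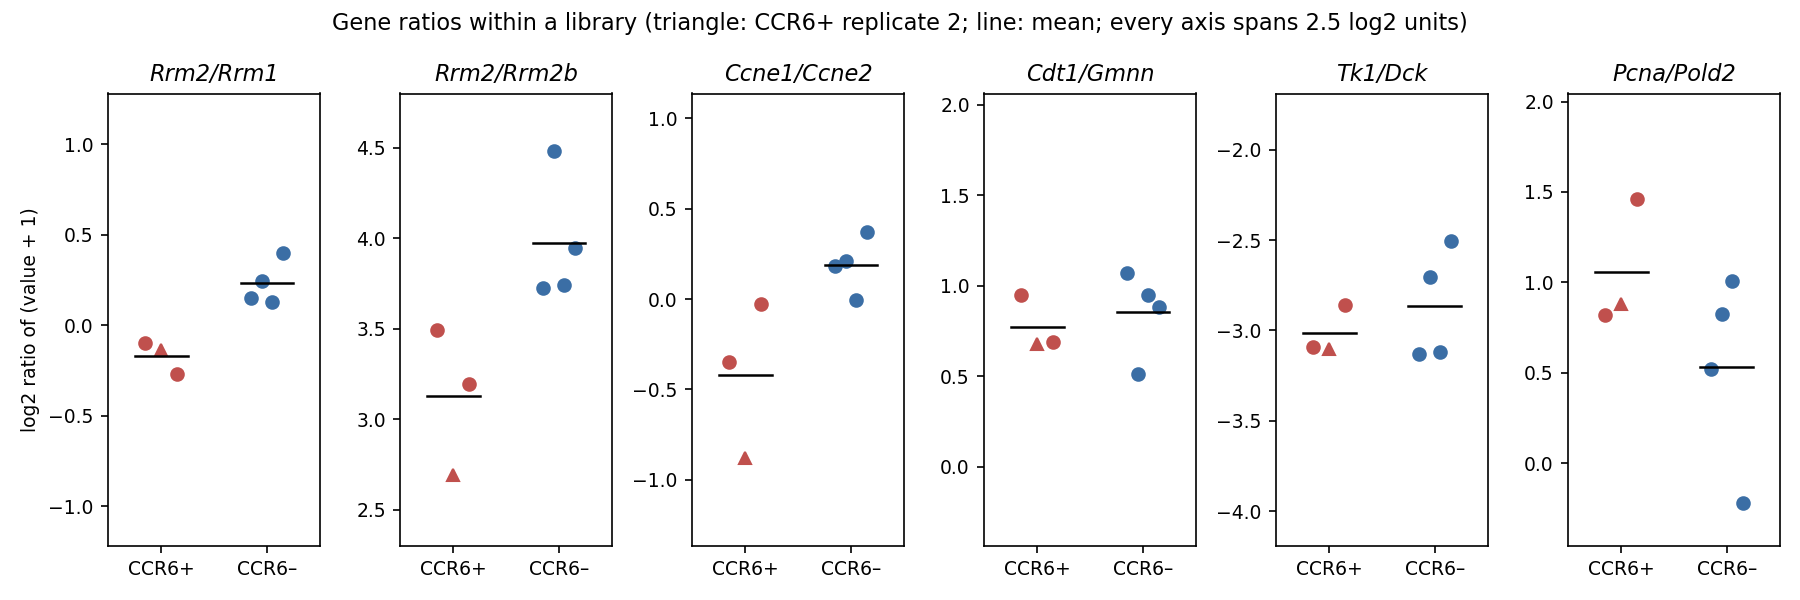
Log2 ratios of (value + 1) of 6 gene pairs within each library, CCR6+ in red on the left, where the triangle is CCR6+ replicate 2, and CCR6– in blue on the right; lines are group means and all axes span the same range. The points do not overlap for Rrm2/Rrm1, Rrm2/Rrm2b and Ccne1/Ccne2, and they do for the other 3 pairs.

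Levels differed widely among the members, compared here per kilobase of exon as means over the 7 libraries. The lengths join the exons of all annotated transcripts, so the order depends in part on the annotation. After Rrm2 came Mcm4, at 2985 normalised counts, Mcm6 at 2772, Mcm3 at 2114 and Mcm5 at 2061, and each of these 5 lay above at least 95.6% of the tested genes. Pcna stood at 1092, Cdt1 at 687, Ccne1 at 411, Cdc6 at 256 and Tk1 at 204. Pole at 129.5 and Gins2 at 113 were the lowest apart from Fen1, at 17.3. Opposite-strand exons cover 84.2% of the exonic bases of Fen1, 67.3% of Gins2 and 52.5% of Chaf1a. Reads of these genes may have been lost or mixed in counting, so their places in the order are uncertain. The size of the difference did not simply follow this order, since the highest member, Rrm2, and members in the lower part of it, Chaf1a at 157 and Cdc6, had like log2 differences.

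The 130 other genes of these processes fell into 5 lists, whose medians ran from -0.44 in mitosis to -0.08 in G1/S regulators. None of these genes was called by limma or edgeR. Of 36 other genes of the replication machinery, 32 had a negative log2 difference, against 43.1% of all genes, with a median of -0.30. In 9 of them the groups separated with CCR6+ lower, as in 5.53% of all genes. An unadjusted limma p under 0.05 was found for 6, all lower, against 2.35% of all genes lower. DESeq2 called 3 lower, against 0.919% of all genes, and none higher. Over the other lists DESeq2 called 2 lower among the E2F targets, 4 lower in mitosis, and 1 higher each among the nucleotide genes and the G1/S regulators, where 3.63% of all genes were called higher. Without CCR6+ replicate 2 the median was -0.23. The smallest p fell to Rnaseh2b, a subunit of the RNase that removes ribonucleotides, with 592, 512 and 554 normalised counts in CCR6+ replicates 1 to 3, against 752, 1118, 849 and 927 in CCR6– replicates 1 to 4. Cdc7, the kinase that fires origins, averaged 959.9 ± 20.9 in CCR6+ and 1488 ± 226 in CCR6– libraries. Pold2 averaged 1045 ± 237 in CCR6+ and 2123 ± 723 in CCR6– libraries, a log2 difference of -0.99. All 3 had separate groups.

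Of 27 other genes of nucleotide synthesis and salvage, 21 were negative, against 43.1% of all genes. The median was -0.24, and -0.20 when CCR6+ replicate 2 was left out. The purine enzymes Gart and Adsl had the smallest p, with log2 differences of -0.56 and -0.48, and only Adsl of these 2 separated. The serine hydroxymethyltransferase Shmt2 followed at -0.48. Of 22 other S phase and repair targets of E2F, 18 were negative, against the same 43.1%. The median was -0.27, and -0.28 when CCR6+ replicate 2 was left out. Uhrf1, which guides DNA methylation to new strands, had 2449, 2386 and 2163 in CCR6+ libraries, against 3789, 3622, 3370 and 3415 in CCR6– libraries. Its groups were far apart relative to their spread, at a log2 difference of -0.61 (SE 0.14, limma adjusted p = 0.399). The methyltransferase Dnmt1, at -0.50, and the histone chaperone Asf1b, at -0.80, also separated.

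Of 25 other regulators of G1 and S, 15 were negative, against 43.1% of all genes. The median was -0.08, with or without CCR6+ replicate 2. The groups separated with CCR6+ lower in 3, against 5.53% of all genes, and with CCR6+ higher in 2, against 7.96%. An unadjusted limma p under 0.05 was found for 3, all higher, against 1198 of all 14582 genes higher. The 3 of smallest p were higher in CCR6+ libraries: Cdk6, a kinase of G1, Ccnd1, cyclin D1, and Cdkn1a, the CDK inhibitor p21. Cdkn1a had 3903, 4706 and 1933 in CCR6+ libraries, against 1663, 2082, 1125 and 1630.4 in CCR6– libraries. CCR6+ replicate 3 lay inside the CCR6– range, and the log2 difference was 1.05 with all libraries and 0.79 without CCR6+ replicate 2. It was the G1/S regulator that DESeq2 called higher (adjusted p = 0.0374). Ccnd1 read 125, 1226 and 107 in CCR6+ libraries, against 67.2, 48.1, 18.4 and 32.5 in CCR6– libraries, so that the library with the most epithelial and stromal RNA carried most of its mean. Its groups did not overlap, at a log2 difference of 2.74. Without CCR6+ replicate 2, Ccnd1 averaged 116 ± 13.3 in CCR6+ and 41.5 ± 20.95 in CCR6– libraries (SD, n = 2 and 4), a smaller difference in the same direction. Cdk6 had 1629, 1831 and 1442 in CCR6+ libraries, against 1266, 1043, 1149.5 and 831 in CCR6– libraries. Its groups did not overlap, at a log2 difference of 0.62 (SE 0.20, limma adjusted p = 0.449), or 0.53 without CCR6+ replicate 2.

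Mitosis genes, which follow S phase in the cycle, had 19 of 20 members negative, against 43.1% of all genes, with a median of -0.44. In 8 the groups separated, CCR6+ lower, against 5.53% of all genes. Plk1, the polo-like kinase, had 1314, 1251 and 1106 in CCR6+ libraries, against 1962, 2476, 1672 and 2665 in CCR6– libraries. Ccnb2, cyclin B2, averaged 2603 ± 237 in CCR6+ and 4865 ± 1327 in CCR6– libraries. Bub1, of the spindle checkpoint, averaged 809 ± 283 in CCR6+ and 1521 ± 315 in CCR6– libraries, at a log2 difference of -0.94. These 3 separated. Without CCR6+ replicate 2 all 20 were negative, against 46.4% of all genes, with a median of -0.37.

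Markers of other cells were on average higher in CCR6+ libraries, most of all in CCR6+ replicate 2. All 13 tested B cell markers, all 15 tested macrophage and monocyte markers, all 16 epithelial and all 14 tested endothelial and stromal markers had positive log2 differences, with medians of 2.12, 2.17, 2.15 and 2.82. None of them was called by limma or edgeR, while DESeq2 called 1 B cell, 2 macrophage, 2 epithelial and 5 endothelial and stromal markers higher, against 3.63% of all genes. Dendritic cell markers were positive in 11 of 12 and granulocyte and mast cell markers in 10 of 11. Without CCR6+ replicate 2 the medians were 1.61 for B cells, 1.30 for macrophages, 0.72 for epithelium and 1.51 for endothelium and stroma. However, 1 B cell, 4 epithelial and 4 endothelial and stromal markers were then negative, and none of the macrophage markers. In list means, CCR6+ replicate 3 lay inside the CCR6– range for B cells, macrophages and epithelium. CCR6+ replicate 1 lay inside it for endothelium and stroma. In each list the other of these 2 libraries lay above that range. The summed level of the macrophage list was 109145, 146375 and 41338 normalised counts in CCR6+ replicates 1 to 3, against 54411, 59106, 22346 and 19448 in CCR6– replicates 1 to 4. The B cell list summed to 7749, 7784 and 1863 in CCR6+ libraries, against 2877, 4383, 695 and 739 in CCR6– libraries. The epithelial list summed to 13006, 85584 and 4517 in CCR6+ libraries, against 4597, 11241, 2331 and 3184 in CCR6– libraries. The endothelial and stromal list summed to 6401, 69299 and 10606 in CCR6+ libraries, against 7663, 7913, 8704 and 5549 in CCR6– libraries. Of their defining markers, Pax5 was listed at 0 in CCR6– replicates 3 and 4, Marco in CCR6+ replicate 1 and CCR6– replicate 2, Pdgfra and Pdgfrb in CCR6+ replicate 1, and Adgre1, Mrc1, Tek and Vwf in CCR6– replicate 4. In all, the B cell list had 0, 0 and 1 markers at 0 in CCR6+ libraries, against 0, 0, 1 and 1 in CCR6– libraries. Epithelium had 0, 0 and 1, against 0, 1, 0 and 3. Endothelium and stroma had 3, 0 and 1, against 1, 1, 0 and 4. The part of all these other cells in the lower replication values was not tested.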

How the data were processed

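Sorted cells were turned into cDNA by a SMART-Seq v4 kit and into libraries by a KAPA kit, per the labels' protocols. Each deposited value is a signal for 1 gene symbol: the authors scaled read counts by library size factors before deposit. Dividing by the smallest step in a library returned whole reads for 100% of the values, within 0.001 reads, and totals of 11607780 to 47261246. STAR 2.5.1b, HTSeq 0.6.1p1, DESeq2 1.6.3 and mm10 are named in the submitters' processing notes. The gene annotation and the strand setting are not stated in those notes as used here.

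The filter was a value of 10 or more in 3 or more libraries, and 14582 genes passed. Limma 3.58.1 (R 4.3.3) tested log2(value + 1), two-sided, without covariates, with Benjamini-Hochberg adjustment at 0.05. Log2 differences are always CCR6+ minus CCR6–, and the added 1 makes those of low genes too small. EdgeR 4.0.16 (quasi-likelihood) and DESeq2 1.42.0 were run on the recovered reads. Gene ratios used exact permutation tests (scipy 1.17.1). Lengths and positions are exon unions of GENCODE mouse release M21 on mm10. The fits were tested on simulated counts with known changes, where fitted sizes came close to those put in. There limma recovered none of the genes given the smallest fold, and the false calls of DESeq2 over all genes ran well above its threshold. In each role, values per library are given for up to 3 separated members of smallest p, or the 1 of smallest p where none separated, and for members that ran against the rest. From each related list up to 3 genes of smallest p are named. Members and lists were chosen with earlier results of these data known. Replicate numbers were not taken to pair samples, and the check of this stands among the alternatives. The alternatives were other pseudocounts, filters, scalings, moderation and weights, a block, the count tools and each library left out.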

Additional observations from a re-analysis of the deposited data

Results flagged for a closer look

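In 58 sets of 4 CCR6– values, the gap between the most extreme library and its nearest neighbour was set against Dixon's 95% limit, and 3 sets passed it. Chance alone gives this in about 5% of sets. Prim1 read 2406 normalised counts in CCR6– replicate 2, against 1597 to 1725 in the other CCR6– libraries. Dut read 2943 in CCR6– replicate 2, against 1404 to 1605 in the others. Chaf1a read 1738 in CCR6– replicate 1, against 1659 to 1668 in the others, a small step in a group of nearly equal values.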

How the results depend on the processing

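Over 23 alternatives, 30 of the 41 members kept a negative log2 difference in each and the median of the members ran from -0.52 to -0.13. That median was -0.33 to -0.49 when 1 library was left out, with 36 to 38 members negative, 21 to 25 separated and none called. The separated count can only stay or rise when a library is left out, and 8.62% of all genes separated without CCR6+ replicate 2. The median became -0.13, with 0 members separated, under pan T scaling, -0.30 under pan T scaling without CCR6+ replicate 2, and -0.28 with arrayWeights, which gave CCR6+ replicate 3 a weight of 24.2 against 0.208 to 2.02 and did not converge. Members called lower numbered 13 with arrayWeights, 7 with DESeq2 and 1 with DESeq2 without CCR6+ replicate 2. Over all genes, limma called 0 higher and 0 lower. The count of genes higher was 1 at a pseudocount of 0.5 or with TMM, 2 at a pseudocount of 8, with a mean of at least 100 (which drops Fen1), by quantile normalization (with 2 lower) or by edgeR with or without CCR6+ replicate 2, 8 with limma-trend (with 2 lower), and 0 to 1 with 1 library left out. ArrayWeights called 1458 higher and 1028 lower, DESeq2 530 and 134, or 105 and 80 without CCR6+ replicate 2. The cause of these changes was not tested.

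Of the 41 members, some changed sign in at least 1 setting, among them Gins1, Gins2 and Gins3, which were -0.33, -0.31 and -0.31 in the report. Orc1 was -0.064 with TMM, -0.41 by quantile normalization, -0.48 with arrayWeights, -0.086 by edgeR, -0.020 by DESeq2, -0.052 by edgeR without CCR6+ replicate 2, and -0.22 to 0.18 with 1 library left out. Prim2 was -0.046 with TMM, -0.13 with arrayWeights, -0.0091 by edgeR, -0.27 to 0.21 with 1 library left out and, without CCR6+ replicate 2, -0.33 by edgeR, -0.26 by DESeq2 and -0.24 under pan T scaling. Pola1 was -0.040 with arrayWeights and -0.031 by edgeR without CCR6+ replicate 2. Under pan T scaling Orc6, Gins3, Pola2, Tyms and Ccne2 were 0.20, 0.00019, 0.037, 0.044 and 0.17, and with arrayWeights Orc6, Gins1, Gins2 and Gins3 were 0.0058, 0.16, 0.27 and 0.00073. Orc6 was -0.20 to 0.032 with 1 library left out.

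Same-numbered libraries had correlations of -0.13, -0.11 and 0.34 in their deviations, so the numbers were not read as pairs. With the replicate number as a block, 38 members were negative, the median was -0.41, no member was called, and Orc1 was -0.22. The 3 ratios without overlap kept their sign in every setting, the replicate block included, where Rrm2/Rrm1 was -0.34. With 1 library left out the exact test of a ratio could not reach a p of 0.05. At this depth, 1 read is worth 2.27 units in CCR6+ replicate 2 and 0.677 in CCR6– replicate 4, which limits Fen1 most.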

Other observations

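Of the 12 genes of the Treg identity list, 9 had a negative log2 difference, CCR6+ minus CCR6–, with a median of -0.35, and without CCR6+ replicate 2 only 3 were negative, with a median of 0.26. The median of the replication genes was -0.44 with all libraries and -0.33 without CCR6+ replicate 2. Ctla4, an inhibitory receptor of Treg cells, had 65124, 20315 and 53352 normalised counts in CCR6+ replicates 1 to 3, against 41858, 41360, 39979 and 21782 in CCR6– replicates 1 to 4. The pan T cell list had 11 of 15 tested genes negative with all libraries and 9 without CCR6+ replicate 2.

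Lists of other lymphocytes and of red cells did not run in 1 direction. Of 12 tested CD8, NK, gamma-delta and ILC genes, 8 were positive, with a median of 0.47, and 0.02 without CCR6+ replicate 2. Of 5 tested erythroid genes, 3 were positive. Hbb-bs, a globin of red cells, ranged from 18.3 to 986 in CCR6+ libraries and from 5.42 to 1537 in CCR6– libraries, so that red cell RNA varied within both groups. Dendritic cell and granulocyte lists had medians of 1.67 and 2.57 with all libraries.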
